A study of Arabidopsis with 12 samples.

Results

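Of the 37825 genes measured by RNA sequencing in Arabidopsis thaliana seedlings, a chosen list of 8 was taken by locus identifiers. The 8 genes encode sensors and transcription factors of the unfolded protein response. They are the sensors IRE1A (AT2G17520) and IRE1B (AT5G24360), the basic leucine zipper factors BZIP60 (AT1G42990), BZIP28 (AT3G10800) and BZIP17 (AT2G40950), and the NAC factors NAC103 (AT5G64060), NAC062 (AT3G49530) and NAC089 (AT5G22290). All 8 passed the filter on low values, for which 3 of the 12 libraries had to reach 1 TPM.

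The unfolded protein response is set off when proteins misfold in the endoplasmic reticulum (ER), and heat is among its known triggers in plants. IRE1 spans the ER membrane and splices the BZIP60 messenger RNA outside the spliceosome, which yields a factor free of the membrane. BZIP28 and BZIP17 are made as membrane proteins, travel to the Golgi and are released there by the proteases S1P and S2P. NAC062 and NAC089 are also held at membranes until they are released, and NAC103 acts downstream of BZIP60. The active factors raise chaperones and other ER genes, so the transcript levels given here are one layer of a system that is controlled mainly by splicing, cleavage and transport. Values per gene do not separate spliced from unspliced BZIP60, and they say nothing about the protein.

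The wild type (WT) was compared with mac3a3b, a mutant of MAC3A and MAC3B, homologous ubiquitin ligases of the spliceosome-associated MOS4 complex. The titles write DM for the mutant, taken here as mac3a3b because the series text names no other. The 4 groups are the control and the 3 day plants of each genotype, with 3 libraries of seedlings each, grown on MS medium with sucrose. The 3 day groups were sampled 3 days after heat, and the protocol names 37 °C. Alleles, plant age and heat duration were not given in the sources used here. What the titles call control appears in the series text as 0 hours after the heat, so these plants may be unheated or taken as the heat ended. The labels name no unheated sample of the later day, so age and recovery cannot be told apart in a change from control to 3 days.

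Levels are in TPM, a length-corrected share of all transcripts in a library. The number of reads behind them is unknown, so no counting error can be given, and the smallest two-sided p of an exact test of 3 against 3 libraries is 0.1. Differences were therefore tested with limma across 22462 genes on log2(TPM + 1), on which changes of weakly expressed genes come out too small, and called at an adjusted p (Benjamini-Hochberg over all these genes) under 0.05. Nothing says that the replicates are separate cultures, so the p-values describe the spread between these libraries, which may be technical. Log2 values carry ± 1 standard error of the fit (n = 3 libraries per group), and TPM means carry ± SD (n = 3).

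MAC3A stood at 34.7 ± 1.19 TPM in WT control and 9.74 ± 0.591 in mutant control, and at 60.4 ± 1.03 and 6.12 ± 0.623 at 3 days. MAC3B stood at 72.6 ± 3.33, 10.4 ± 0.415, 133 ± 4.69 and 9.44 ± 0.581 TPM in the same groups. The makeup of the libraries also moved. The median of all genes was 0.060 for mutant against WT at control, -0.51 at 3 days, 0.39 from control to 3 days in WT, -0.13 in the mutant and -0.55 for the difference of these changes. The 4 ribosomal RNA loci summed to 5836 to 8110 TPM over the control libraries of both genotypes, 12880 to 14240 in WT 3 days and 35410 to 41120 in mutant 3 days. The 5 root markers together summed to 62.2 to 79.2 TPM over the control libraries, 35.5 to 43.5 in WT 3 days and 14.6 to 14.8 in mutant 3 days, where the root hair gene EXP7 was at 0 in all libraries. They did not move alike in WT, where the group mean of CASP1 went from 37.9 to 10.5 TPM, while that of SCR went from 13.3 to 15.0 and that of SHR from 9.50 to 11.3; in the mutant all 5 means were lower at 3 days. The 5 green leaf markers were detected in all groups and summed to 20400 to 26000 TPM at control and 1840 to 3358 at 3 days. The 4 guard cell markers summed to 29.6 to 39.2 TPM over all groups, with KAT1 going from 11.8 to 1.49 TPM in the mutant while FAMA went from 9.59 to 13.1 and MYB60 from 12.6 to 15.4. The 4 seed markers summed to 0.78 or less in all groups but mutant 3 days (3.12 to 4.71), with AT2S3 at 0 in all libraries. In bulk samples, fewer cells of a type and less RNA per cell cannot be told apart, and the part of these shifts in the results below was not tested. Since a shift of all genes can create or hide a change of a single gene, each direction was recomputed after median-of-ratios scaling and after quantile normalization, and is given where it flipped. For the 8 genes the values that lost their call or moved by over 1.5 times are given too.

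At control, 6 of the 8 genes were higher in the mutant than in WT and none was lower, against 30.3% of all genes called higher and 19.2% called lower. From control to 3 days all 8 rose in WT, where 54.9% of all genes were called higher and 26.4% lower. In the mutant 7 rose and NAC089 fell, against 39.4% and 46.5% of all genes. At 3 days 6 of 8 were higher and NAC089 lower in the mutant than in WT, against 24.1% and 58.7% of all genes. The change to 3 days was larger in the mutant for 4 genes and smaller for 2, against 20.6% and 56.3% of all genes. The median change of the 8 genes from control to 3 days was 1.36 in WT and 2.04 in the mutant. With median-of-ratios scaling all genes split into 8924 higher and 8872 lower calls in WT (12339 and 5932 as deposited), and into 8612 and 9563 for mutant against WT at 3 days (5403 and 13185 as deposited). The same scaling gave 5362 and 5380 in place of 6803 and 4313 at control, and 8258 and 8494 in place of 4620 and 12657 for the difference of changes. For the change to 3 days in the mutant it gave 9726 and 9658 in place of 8857 and 10438. After that scaling 5 of 8 members were called higher and 0 lower at control, and 6 and 0 for the change in WT. The members split into 7 and 0 for the change in the mutant, and 7 and 0 for mutant against WT at 3 days. The changes to 3 days were then larger in the mutant for 6 and smaller for 2.

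**Figure D1:**
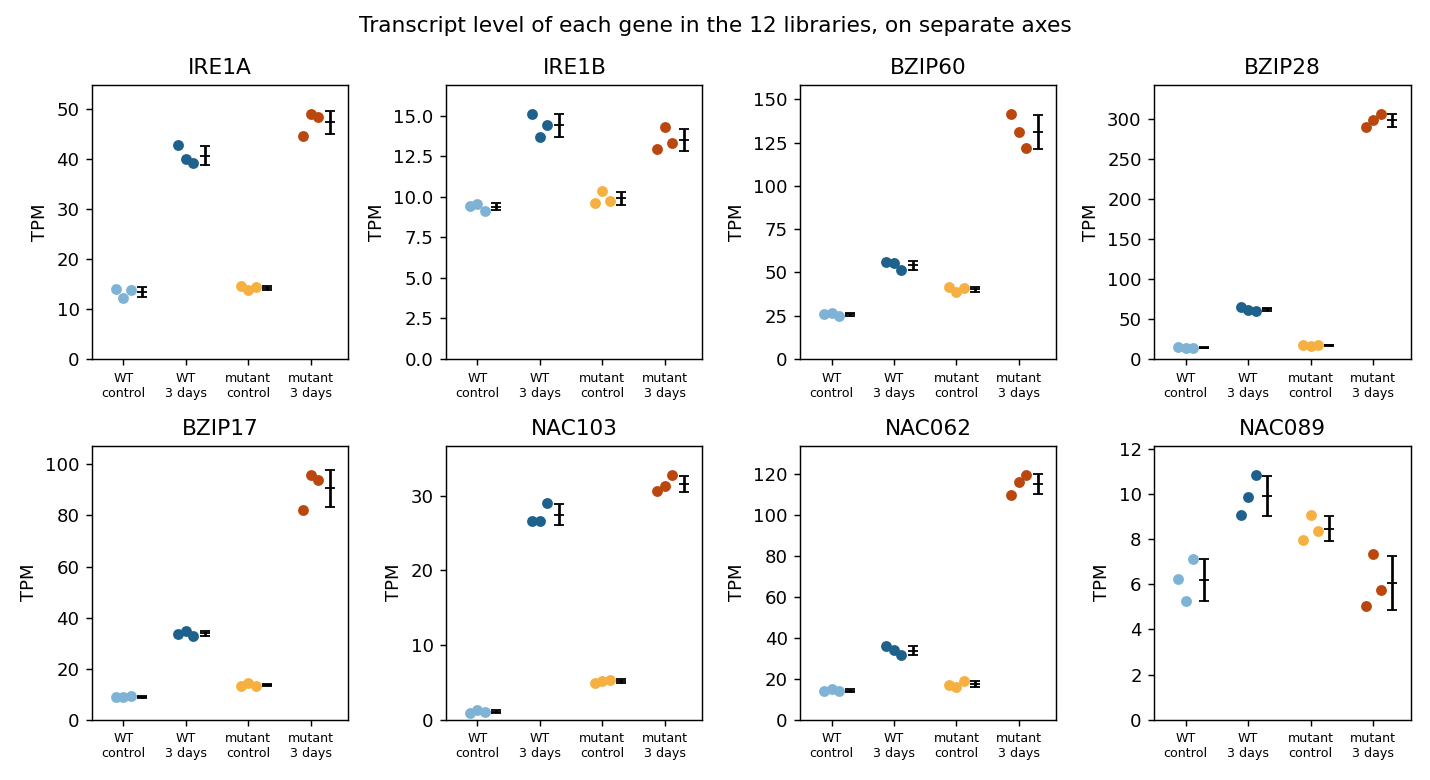
TPM of each gene (vertical axis, separate scale per gene, starting at 0) in the 4 groups of genotype and time. Dots are the 3 libraries of a group and the bar is the mean ± SD; BZIP28 reaches 290.8 to 306.1 TPM in mutant 3 days, while NAC089 stays under 11 TPM in every library.

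Both sensors were higher at 3 days than at control in both genotypes. IRE1A, a sensor with a kinase and a ribonuclease domain, had 14.02, 12.25 and 13.75 TPM in WT control and 14.54, 13.76 and 14.43 in mutant control. At 3 days it had 42.71, 39.98 and 39.26 TPM in WT and 44.64, 48.9 and 48.34 in the mutant. The control groups overlapped, and at 3 days all mutant libraries lay above all WT libraries. IRE1A rose by 1.54 ± 0.060 in WT (adjusted p = 4.57e-10) and by 1.66 ± 0.060 in the mutant (adjusted p = 1.12e-10). The genotypes differed by 0.21 ± 0.060 at 3 days (adjusted p = 0.00617), by 0.76 (adjusted p = 4.83e-07) after median-of-ratios scaling and by 0.35 (adjusted p = 2.05e-04) after quantile normalization. The difference of the changes did not pass (0.12 ± 0.085, adjusted p = 0.206). It did pass after median-of-ratios scaling (0.75, adjusted p = 1.79e-05) and quantile normalization (0.32, adjusted p = 0.00493).

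IRE1B, the second sensor with the same domains, had 9.45, 9.57 and 9.13 TPM in WT control and 9.64, 10.37 and 9.72 in mutant control. It had 15.08, 13.69 and 14.39 TPM in WT 3 days and 12.93, 14.28 and 13.3 in mutant 3 days, and these last groups overlapped, while the mutant lay just above WT in the control libraries. It rose by 0.57 ± 0.059 in WT (adjusted p = 2.83e-06) and 0.41 ± 0.059 in the mutant (adjusted p = 4.01e-05). In the signed order of all genes, from the largest fall to the largest rise, 57.4% and 64.6% lay below these values. The WT value did not pass after median-of-ratios scaling (0.15, adjusted p = 0.0573) and was 0.20 (adjusted p = 0.0130) after quantile normalization, where the mutant value was 0.67 (adjusted p = 9.35e-07). Mutant and WT differed by -0.085 ± 0.059 at 3 days (adjusted p = 0.201), a value that turned to 0.43 (adjusted p = 7.08e-05) with median-of-ratios scaling and to 0.49 (adjusted p = 2.53e-05) with quantile normalization.

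The ratio of IRE1A to IRE1B within a library is not changed by a scaling factor applied to the whole library, such as the median-of-ratios factor, but it can change with quantile normalization. It was 1.28 to 1.51 in WT control and 1.33 to 1.51 in mutant control. It was 2.73 to 2.92 in WT 3 days and 3.42 to 3.63 in mutant 3 days. In TPM as deposited the balance of the sensors thus lay further towards IRE1A at 3 days than at control in every library. At 3 days it also lay further towards IRE1A in the mutant than in WT, but with quantile normalization this turned round, since the mutant then exceeded WT by 0.35 for IRE1A and by 0.49 for IRE1B.

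BZIP60, the factor whose messenger RNA is the substrate of IRE1, was the most abundant of the 8 transcripts at control. It had 26.06, 26.73 and 24.77 TPM in WT control and 41.53, 38.81 and 40.77 in mutant control. It had 56.03, 55.35 and 51.35 TPM in WT 3 days and 141.4, 131.2 and 121.7 in mutant 3 days. The ranges of the 4 groups did not overlap, and mutant control lay between WT control and WT 3 days. The mutant was higher by 0.62 ± 0.059 at control (adjusted p = 7.78e-06) and by 1.26 ± 0.059 at 3 days (adjusted p = 2.08e-09). The rise to 3 days was 1.04 ± 0.059 in WT and 1.68 ± 0.059 in the mutant, and it differed by 0.64 ± 0.083 (adjusted p = 2.59e-05). The WT rise was 0.60 (adjusted p = 5.05e-07) with median-of-ratios scaling and 0.69 (adjusted p = 1.16e-06) with quantile normalization, and the difference was 1.27 (adjusted p = 2.61e-08) with the former.

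BZIP28 showed the largest genotype difference of the 8 genes at 3 days. This membrane-held factor had 14.65, 13.92 and 13.41 TPM in WT control and 17.16, 16.73 and 17.8 in mutant control. It had 64.65, 60.87 and 60.69 TPM in WT 3 days and 290.8, 298.6 and 306.1 in mutant 3 days. No groups overlapped, and the mean at 3 days was 4.44 times the control mean in WT and 17.3 times in the mutant. The log2 changes were 2.07 ± 0.045 (adjusted p = 4.75e-12) and 4.04 ± 0.045 (adjusted p = 2.74e-14), and they differed by 1.97 ± 0.064 (adjusted p = 4.12e-10). In the signed order of changes, where every fall ranks below every rise, 98.5% of all genes lay below BZIP28 in the mutant and 93.2% in WT. The mutant was higher by 0.28 ± 0.045 already at control (adjusted p = 3.55e-04).

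BZIP17, a close relative of BZIP28 that is released by the same proteases and is known for its part in salt stress, moved the same way, by less than BZIP28 from control to 3 days and by more between the genotypes at control. At control it had 8.8, 8.9 and 9.5 TPM in WT and 13.28, 14.24 and 13.36 in the mutant. At 3 days it had 33.5, 34.9 and 32.94 TPM in WT and 82.08, 95.8 and 93.8 in the mutant. No groups overlapped. It rose by 1.79 ± 0.062 in WT and 2.64 ± 0.062 in the mutant, and these changes differed by 0.85 ± 0.087 (adjusted p = 3.13e-06), or by 1.48 (adjusted p = 1.47e-07) with median-of-ratios scaling. The mutant was higher by 0.54 ± 0.062 at control (adjusted p = 3.17e-05) and 1.39 ± 0.062 at 3 days (adjusted p = 1.30e-09).

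Within a library the ratio of BZIP28 to BZIP17 was 1.41 to 1.67 in WT control and 1.18 to 1.33 in mutant control, then 1.74 to 1.93 in WT 3 days and 3.12 to 3.54 in mutant 3 days. The mutant thus had the lower ratio at control and the higher one at 3 days. The ratio of BZIP60 to BZIP28 went the other way, from 1.78 to 1.92 in WT control to 0.846 to 0.909 in WT 3 days, and from 2.29 to 2.42 in mutant control to 0.397 to 0.486 in mutant 3 days. BZIP60 was thus above BZIP28 in every control library and below it in every library at 3 days.

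**Figure D2:**
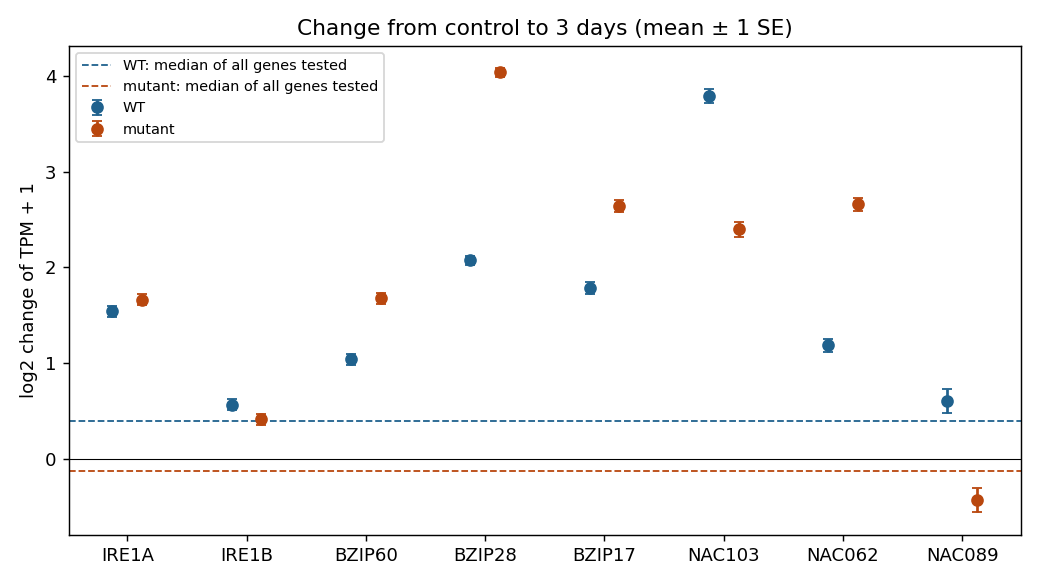
Log2 change of TPM + 1 from control to 3 days for each gene in WT and in the mutant; points are limma estimates from 3 libraries per group, bars are ± 1 standard error and dashed lines are the medians of all 22462 genes tested (0.39 and -0.13). BZIP28 is highest in the mutant at 4.04 and NAC103 in WT at 3.79, and NAC089 alone of the 8 lies below 0, in the mutant (0.065 with quantile normalization).

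NAC103, which is not held at a membrane and is known as a target of BZIP60, had the largest difference at control and the largest change in WT. It had 0.9, 1.27 and 1 TPM in WT control and 4.92, 5.24 and 5.39 in mutant control, a ratio of means of 4.90. It had 26.59, 26.62 and 29.07 TPM in WT 3 days and 30.63, 31.31 and 32.75 in mutant 3 days. The mutant libraries lay above WT at both points, and the ratio of means was 1.15 at 3 days. The mutant was higher by 1.59 ± 0.076 at control (adjusted p = 6.10e-08), where 99.1% of all genes differed by less in that direction. At 3 days the difference was 0.20 ± 0.076 (adjusted p = 0.0303), and this call was lost with a pseudocount of 0.1 (adjusted p = 0.0991), without WT 3 days replicate 1 (0.0888) or 2 (0.0910), and without mutant 3 days replicate 2 (0.0586) or 3 (0.0955). It was larger after median-of-ratios scaling (0.73, adjusted p = 4.48e-06) and quantile normalization (0.45, adjusted p = 1.02e-04).

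The rise of NAC103 was 3.79 ± 0.076 in WT (adjusted p = 2.28e-12) and 2.40 ± 0.076 in the mutant (adjusted p = 3.37e-11). The change was smaller in the mutant by -1.39 ± 0.11 (adjusted p = 2.63e-07), with the higher starting level on the mutant side, and by -0.82 (adjusted p = 5.10e-05) with median-of-ratios scaling. With a pseudocount of 0.1, which compresses low values less, the rises were 4.58 in WT and 2.58 in the mutant. Its level relative to BZIP60 within a library was 0.0345 to 0.0475 in WT and 0.118 to 0.135 in the mutant at control, and 0.475 to 0.566 in WT and 0.217 to 0.269 in the mutant at 3 days. The mutant thus held more NAC103 per BZIP60 transcript than WT at control and less at 3 days.

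NAC062, a membrane-held factor that enters the nucleus in ER stress and cold, had 13.99, 15.06 and 13.89 TPM in WT control and 17.14, 16.2 and 18.9 in mutant control. It had 35.83, 34.11 and 31.6 TPM in WT 3 days and 109.8, 116.4 and 119.6 in mutant 3 days. No groups overlapped. It was higher in the mutant by 0.26 ± 0.066 at control (adjusted p = 0.00593) and 1.74 ± 0.066 at 3 days (adjusted p = 3.55e-10). It rose by 1.19 ± 0.066 in WT and 2.66 ± 0.066 in the mutant, a difference of 1.48 ± 0.093 (adjusted p = 5.11e-08), second to BZIP28 among the 8 genes. The WT rise was 0.75 (adjusted p = 8.50e-07) with median-of-ratios scaling.

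NAC089, a membrane-held factor tied to cell death in ER stress, did not share this pattern. At control it had 6.23, 5.26 and 7.13 TPM in WT and 7.96, 9.05 and 8.36 in the mutant. At 3 days it had 9.06, 9.85 and 10.84 TPM in WT and 5.05, 7.36 and 5.76 in the mutant. WT control and mutant 3 days overlapped, and WT 3 days was highest. It was higher in the mutant at control by 0.40 ± 0.13 (adjusted p = 0.0226), which did not pass after median-of-ratios scaling (adjusted p = 0.0674) or without WT control replicate 1 (0.0508) or 2 (0.0937) or mutant control replicate 2 (0.0749). It rose in WT by 0.60 ± 0.13 (adjusted p = 9.40e-04) and fell in the mutant by 0.43 ± 0.13 on the log2 scale (adjusted p = 0.00743). The WT rise did not pass with median-of-ratios scaling (0.20, adjusted p = 0.189) or quantile normalization (0.26, adjusted p = 0.0856), and the mutant value did not pass with median-of-ratios scaling (-0.27, adjusted p = 0.0809) and turned to 0.065 (adjusted p = 0.644) with quantile normalization. At 3 days the mutant was lower by -0.64 ± 0.13 (adjusted p = 5.98e-04), which became -0.14 (adjusted p = 0.336) with median-of-ratios scaling and turned to 0.18 (adjusted p = 0.208) with quantile normalization. The changes differed by -1.04 ± 0.18 (adjusted p = 2.54e-04), and by -0.47 (adjusted p = 0.0423) and -0.19 (adjusted p = 0.359) with these scalings.

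The ratio of NAC062 to NAC089 within a library was 1.95 to 2.86 in WT and 1.79 to 2.26 in the mutant at control, and 2.92 to 3.96 in WT and 15.8 to 21.7 in the mutant at 3 days. These membrane-held NAC factors thus moved apart in the mutant at 3 days in all 3 libraries.

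**Figure D3:**
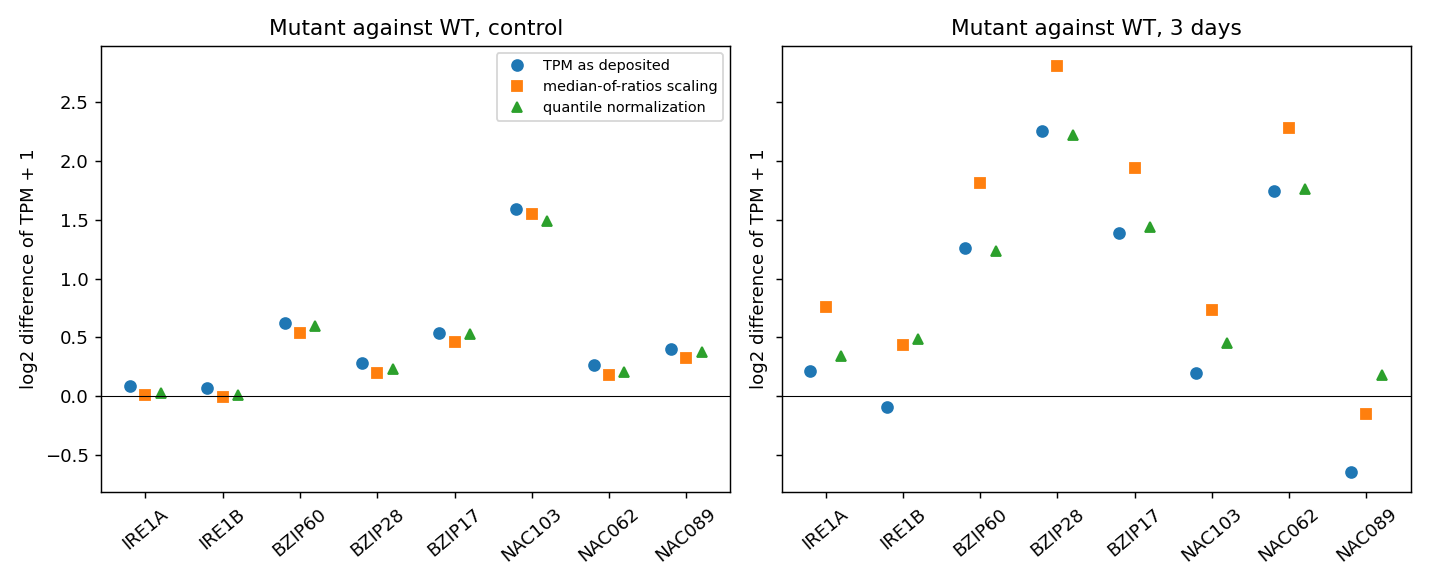
Log2 difference of TPM + 1 between mutant and WT for each gene at control (left) and at 3 days (right), from TPM as deposited, after median-of-ratios scaling and after quantile normalization; each point is a limma estimate from 3 against 3 libraries. At 3 days BZIP28, NAC062, BZIP17 and BZIP60 lie above 1 with each scaling, while IRE1B and NAC089 each change their side of 0 with the scaling.

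The 8 transcripts changed their order between groups. In WT control BZIP60 was highest at 25.9 ± 0.996 TPM and NAC103 lowest at 1.06 ± 0.191. In mutant 3 days BZIP28 was highest at 298.5 ± 7.65 TPM and NAC089 lowest at 6.06 ± 1.18. Ordered by level, BZIP60, BZIP28, BZIP17, NAC103 and NAC062 rose from WT control through mutant control and WT 3 days to mutant 3 days with no overlap of neighbouring groups. IRE1A had the same order with its control groups overlapping, and IRE1B and NAC089 were highest in WT 3 days. How many of all genes have groups that do not overlap was not determined, so these orders are description only. Calls were common over all genes, with 54.9% higher and 26.4% lower from control to 3 days in WT. By the root mean square distance of centred log2 values over the 12 libraries, the most alike profiles among the 8 were BZIP17 and NAC062 (0.230) and the least alike BZIP28 and NAC089 (1.81).

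Genes that act on these regulators or resemble them were listed separately, with earlier results of these data known. Of 10 activation and regulation genes, 8 were kept, and 6 rose and 1 fell in WT (5 and 3 with median-of-ratios scaling) while 7 rose in the mutant, beside 54.9% of all genes called higher and 26.4% lower in WT and 39.4% higher in the mutant. S1P, the first protease that cuts BZIP28, went from 8.92 ± 0.267 to 17.4 ± 0.472 TPM in WT and from 8.11 ± 0.352 to 18.9 ± 0.750 in the mutant. The genotypes did not differ past the threshold in S1P at control (-0.12 ± 0.054, adjusted p = 0.0833) or at 3 days (0.11 ± 0.054, adjusted p = 0.0770). BI1 (AT5G47120), an ER membrane protein that restrains cell death, went from 75.6 ± 1.03 to 264 ± 20.8 TPM in WT and from 89.4 ± 0.697 to 1509 ± 44.6 in the mutant. Its change was larger in the mutant by 2.27 ± 0.072 (adjusted p = 3.59e-10). SAR1B, a GTPase of vesicle export from the ER, stood at 198 ± 3.11 and 189 ± 2.35 TPM in WT and rose from 178 ± 5.49 to 595 ± 15.2 TPM in the mutant. SAR1A (AT1G09180), a related GTPase, followed the other pattern, going from 0.977 ± 0.362 to 7.84 ± 0.741 TPM in WT and from 4.73 ± 0.499 to 8.12 ± 1.76 in the mutant, and its change was smaller in the mutant by -1.52 ± 0.23 (adjusted p = 9.39e-05). AGB1, a G protein subunit linked to ER stress, was lower in the mutant at 3 days (-0.99 ± 0.053, adjusted p = 6.36e-09), and BAG7, an ER chaperone regulator, fell in WT by 0.21 ± 0.069 on the log2 scale (adjusted p = 0.0160), a call lost without WT 3 days replicate 3 (0.0704). At control SAR1A (1.55 ± 0.16, adjusted p = 1.84e-05) and S2P, the second protease (0.30 ± 0.077, adjusted p = 0.00693), led 3 higher members, and SAR1B was lower (-0.15 ± 0.037, adjusted p = 0.00621). Beside these counts, 30.3% of all genes were called higher and 19.2% lower at control. With median-of-ratios scaling 3 of this list were higher and 3 lower, beside 5362 and 5380 of all 22462 genes. IRE1C and BZIP49, relatives of the members, were at or under 0.4133 TPM in every group mean and were not kept.

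The 28 targets of the response, chaperones and other ER genes, differed in their counts between control and 3 days. At control 4 were higher and 10 lower in the mutant (3 and 14 with median-of-ratios scaling), with a median of -0.11 beside 0.060 over all genes. Of all genes 30.3% were called higher and 19.2% lower at control, or 5362 and 5380 of 22462 genes with that scaling. BIP3, the stress-induced copy of the ER chaperone BiP, was the leading increase at control (1.34 ± 0.18, adjusted p = 1.03e-04), with 0.283 ± 0.127 TPM in WT and 2.25 ± 0.448 in the mutant. It reached 1 TPM in 6 libraries, all of them mutant, so it passed the filter only through the genotype where it is high. ERDJ3A (AT3G08970), an ER co-chaperone, was higher too (0.51 ± 0.069, adjusted p = 1.01e-04), while HRD1B, a ubiquitin ligase of ER protein disposal (-0.81 ± 0.034, adjusted p = 2.81e-08), and PDIL1-1, a disulfide isomerase (-0.68 ± 0.062, adjusted p = 5.85e-06), were lower. From control to 3 days 26 of 28 rose in WT (median 0.91) and 27 of 28 in the mutant (median 2.92), and none fell in either. Over all genes 54.9% rose in WT (median 0.39) and 39.4% in the mutant (median -0.13). After median-of-ratios scaling 20 rose and 1 fell in WT and 28 rose in the mutant. Of all 22462 genes, 8924 were then called higher and 8872 lower in WT, and 9726 and 9658 in the mutant. The largest rises in both genotypes were ERDJ3A, from 1.54 ± 0.127 to 52.5 ± 4.21 TPM in WT and from 2.62 ± 0.165 to 451.6 ± 24.5 in the mutant, and UTR1, a nucleotide sugar transporter (2.15 ± 0.052 and 4.62 ± 0.052).

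At 3 days 25 of the 28 targets were higher and 2 lower in the mutant, and 24 had a larger and 2 a smaller change to 3 days than in WT, beside 24.1% and 58.7% of all genes at 3 days and 20.6% and 56.3% for the changes. BIP2 stood at 219 ± 17.9 TPM in WT 3 days and 2195 ± 249.5 in mutant 3 days; reads of the similar BIP1 and BIP2 may be divided between them, and BIP1 stood at 324 ± 13.9 and 1634 ± 170 TPM. BIP3, 1 of the 25, was higher by 3.78 ± 0.18 (adjusted p = 2.42e-09), with 0.703 ± 0.167 TPM in WT 3 days and 22.8 ± 5.90 in mutant 3 days. Here too it was tested only because the mutant libraries, where it is high, passed the filter. HRD1B had a larger change in the mutant by 3.11 ± 0.049 (adjusted p = 1.81e-11). The members that were lower at 3 days were CRT3, a calreticulin of plant immunity (-1.08 ± 0.054, adjusted p = 3.26e-09), and HRD1A (-0.54 ± 0.075, adjusted p = 3.11e-05), whose value was -0.015 with median-of-ratios scaling and turned to 0.027 with quantile normalization. The smaller change of CRT3 in the mutant (-0.51 ± 0.076, adjusted p = 6.60e-05) turned to 0.12 with median-of-ratios scaling, and that of HRD1A (-0.35 ± 0.11, adjusted p = 0.00961) turned to 0.25 with median-of-ratios scaling and 0.30 with quantile normalization.

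**Figure D4:**
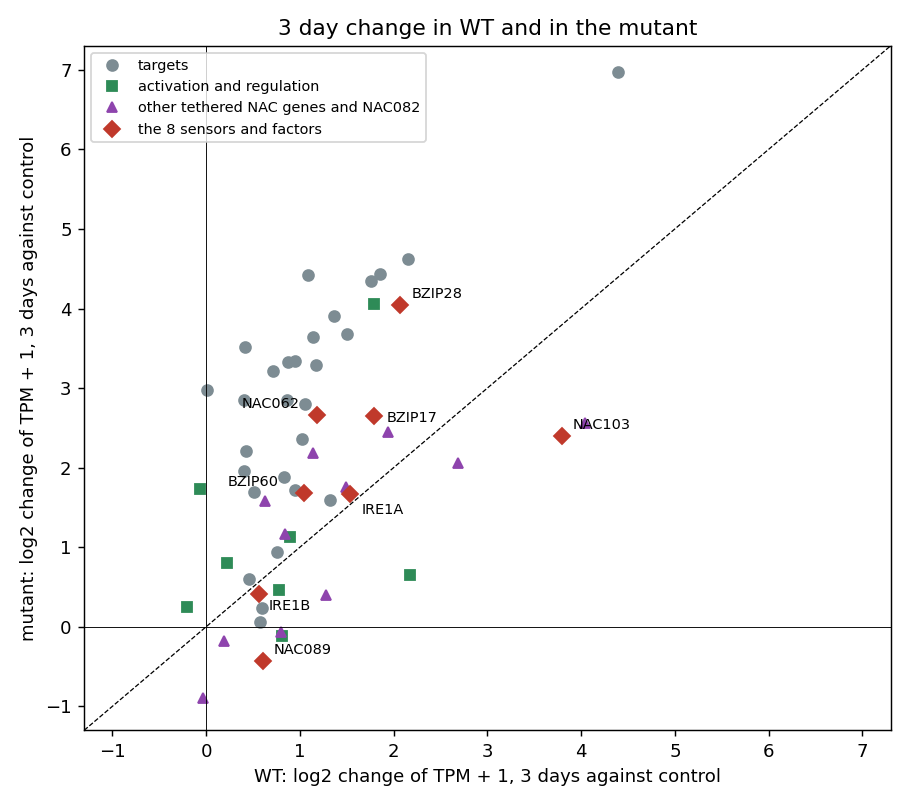
Log2 change of TPM + 1 from control to 3 days in WT (horizontal) against the mutant (vertical); each point is a kept gene of the list named in the legend, estimated from 3 against 3 libraries, and the dashed line marks equal change. BZIP28, NAC062, BZIP17 and BZIP60 lie above the line among the targets, NAC103 lies below it at 3.79 and 2.40, and the target at the top right is ERDJ3A.

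Among 12 other NAC genes, those known as membrane-tethered and NAC082, 11 were kept. At control 7 were higher and 1 lower in the mutant, beside 30.3% and 19.2% of all genes. NAC013 (AT1G32870), a factor of mitochondrial stress, went from 4.74 ± 0.330 to 93.2 ± 2.42 TPM in WT and from 30.2 ± 0.906 to 183 ± 8.97 in the mutant. Like NAC103 it was higher in the mutant at control (2.44 ± 0.053, adjusted p = 1.67e-10) and had a smaller change there (-1.48 ± 0.075, adjusted p = 8.77e-09). NAC053 was also higher at control (0.51 ± 0.12, adjusted p = 0.0034) and NAC069 lower (-0.32 ± 0.078, adjusted p = 0.00592). In WT 10 rose and none fell (9 and 2 with median-of-ratios scaling), led by NAC013 (4.04 ± 0.053) and NAC068 (2.69 ± 0.091), and in the mutant 7 rose and 2 fell. Of all genes 54.9% rose and 26.4% fell in WT, and 39.4% rose and 46.5% fell in the mutant. NAC013 (2.56 ± 0.053) and NAC016 (2.45 ± 0.16) led the rises there, NAC014 fell by 0.90 ± 0.11 on the log2 scale (adjusted p = 6.89e-06), and NAC017 by 0.18 ± 0.071 (adjusted p = 0.0318), a call lost with the replicate number as a block (adjusted p = 0.0535), with the groups compared fitted alone (0.0615), without mutant control replicate 3 (0.135) and without mutant 3 days replicate 2 (0.0803) or 3 (0.128), and whose value turned to 0.00379 with median-of-ratios scaling.

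At 3 days 5 of these NAC genes were higher and 4 lower in the mutant (7 and 1 with median-of-ratios scaling). Of all genes 24.1% were higher and 58.7% lower, or 8612 and 9563 of 22462 genes with that scaling. NAC078 (1.31 ± 0.054, adjusted p = 7.76e-10) and NAC091 (1.19 ± 0.053, adjusted p = 1.25e-09) were highest, and their changes were larger in the mutant (1.04 ± 0.077, adjusted p = 1.91e-07, and 0.96 ± 0.075, adjusted p = 3.06e-07). NAC014 was lower (-0.92 ± 0.11, adjusted p = 7.02e-06; -0.00884 with quantile normalization). NAC040 was lower as well (-0.63 ± 0.21, adjusted p = 0.0142), but turned to 0.34 with quantile normalization and lost its call with median-of-ratios scaling (adjusted p = 0.212) and without WT 3 days replicate 1 (adjusted p = 0.0692) or mutant 3 days replicate 3 (0.0664). NAC040 was near the floor, at 2.37 ± 0.786 TPM in WT 3 days and 1.20 ± 0.571 in mutant 3 days. It reached 1 TPM in 5 libraries and passed the filter only through WT 3 days, the group where it is highest. Its smaller change in the mutant (-0.88 ± 0.29, adjusted p = 0.0162) did not pass with median-of-ratios scaling (adjusted p = 0.122) and turned to 0.20 with quantile normalization. In all, changes were larger in the mutant for 4 and smaller for 6 of the 11 (6 and 1 with median-of-ratios scaling). Over all genes 20.6% had a larger and 56.3% a smaller change, so in TPM as deposited the share of smaller changes was close to that of all genes. With median-of-ratios scaling 8258 of 22462 genes had a larger and 8494 a smaller change.

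Of 3 genes reported downstream of NAC089, 2 were kept. BAG6, a co-chaperone regulator of heat and cell death, went from 3.83 to 55.0 TPM in WT and from 2.21 to 51.1 in the mutant (group means), so it rose in both (3.54 ± 0.064 and 4.02 ± 0.064). A link between its level and that of NAC089 was not tested. BAG6 was lower in mutant control (-0.59 ± 0.064, adjusted p = 2.20e-05), and its change was larger in the mutant by 0.48 ± 0.091 (adjusted p = 4.63e-04). The metacaspase MC5 rose in WT by 0.49 ± 0.20 (adjusted p = 0.0409), from a group mean of 1.10 to 1.95 TPM, and lost its call under 8 of 12 alternatives that could be fitted.

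Genes outside the 8 whose profiles over the 12 libraries lay closest were found by the same distance, among kept genes with a symbol. They were MED19A (0.063) and MUG1 (0.078) for IRE1A, BLI (0.060) and IPP2 (0.060) for IRE1B, IDH-VI (0.107) and ABI1 (0.110) for BZIP60, ADF6 (0.116) and BI1 (0.122) for BZIP28, ABCF1 (0.106) and PUB14 (0.111) for BZIP17, EIF4B1 (0.088) and AMSH3 (0.092) for NAC062, and KU70 (0.120) and KP1 (0.128) for NAC089. NAC103 had the most distant neighbours, SWEET1 (0.248) and CYTC-2 (0.291). ADF6, an actin-binding protein, shared the steep mutant rise of BZIP28, with group means going from 38.8 to 139.7 TPM in WT and from 45.3 to 689 in the mutant. SWEET1, a sugar transporter, shared the raised mutant control of NAC103, going from 17.0 to 177 TPM in WT and from 47.1 to 201 in the mutant. The distance is dominated by the 4 groups, which all libraries of a group share.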

How the data were processed

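Polyadenylated RNA was measured in 12 libraries, 3 per group, made with oligo dT and an Illumina TruSeq kit, per the labels' protocols. The authors deposited TPM per gene for 37825 genes, with RSEM and the TAIR10 build named in the submitters' processing notes; versions, aligner, strand and filters were not given in the sources used here. TPM keeps no depth, and library sums were 999986.2 to 999995.5. Control columns write a zero where the titles write the letter O, and were matched on the rest of the name. Correlations of log values between libraries of one group were 0.982 to 0.989, and no pair had the same TPM above 0 in more than 1.27% of all genes in the table. One row was empty and names came from a RefSeq gene table (TAIR10.1), of which 37572 rows matched. No sequences or coordinates were used here.

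Genes with TPM of at least 1 in at least 3 libraries (22462) were fitted on log2(TPM + 1) with limma 3.58.1 in R 4.3.3, with 1 mean per group over all 12 libraries and an intensity trend, and tested in 5 comparisons with Benjamini-Hochberg over these genes. The fit was tested on simulated data. Comparisons that use the same group share its libraries. The members and lists were chosen with earlier results of these data known. All 8 members are named, with up to 2 called genes per list, direction and comparison, the targeted genes, and the 2 genes most like each member. S1P and BIP1 were added after their values were seen. Alternatives were a pseudocount of 0.1, no filter, a minimum of 5 TPM, median-of-ratios scaling, quantile normalization, the replicate number as a block, the groups compared alone, and each library left out.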

Additional observations from a re-analysis of the deposited data

Results flagged for a closer look

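A genotype difference in the change from control to 3 days was common, with 20.6% of all genes called larger and 56.3% smaller in the mutant. The change from control to 3 days differed between the genotypes in the limma test of the difference for 6 of the 8 genes. Mutant minus WT, it was 1.97 for BZIP28, 1.48 for NAC062, 0.85 for BZIP17 and 0.64 for BZIP60, and it was -1.39 for NAC103 and -1.04 for NAC089, the last lost with quantile normalization (-0.19).

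It also differed for the named genes of the lists. It was larger in the mutant for BIP2 (3.34), HRD1B (3.11), BI1 (2.27), SAR1B (1.80), NAC078 (1.04), NAC091 (0.96) and BAG6 (0.48). It was smaller for SAR1A (-1.52), NAC013 (-1.48), AGB1 (-0.93), NAC040 (-0.88), CRT3 (-0.51) and HRD1A (-0.35), of which the last 3 changed sign or call with another scaling.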

How the results depend on the processing

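Scaling was the choice that moved most values. With median-of-ratios scaling and with quantile normalization, the lower calls among the 8 genes went from 1 to 0 for mutant against WT at 3 days and from 1 to 0 for the mutant change, and with quantile normalization from 2 to 1 for the difference of changes. Lower calls over all genes fell too, from 13185 to 9563 and 8468 at 3 days and from 10438 to 9658 and 9196 for the mutant change. For the difference they went from 12657 to 7800 with quantile normalization. With median-of-ratios scaling IRE1B turned to -0.0065 at control, 0.434 at 3 days and 0.44 for the difference, MAC3B to 0.050 for the mutant change, NAC017 to 0.00379 there, and CRT3 to 0.117 and HRD1A to 0.25 for the difference. With quantile normalization, at 3 days IRE1B turned to 0.485, NAC089 to 0.185, HRD1A to 0.0265 and NAC040 to 0.335. For the mutant change NAC089 turned to 0.065 and MAC3B to 0.233, and for the difference IRE1B to 0.473, HRD1A to 0.299 and NAC040 to 0.198. Quantile normalization gave 9050 higher and 8468 lower genes at 3 days and 8319 and 7800 for the difference. With median-of-ratios scaling, differences of the changes that kept sign and call but moved by over 1.5 times were -0.30 for AGB1, -0.99 for SAR1A (-0.63 with quantile normalization), -0.86 for NAC013, 1.68 for NAC078, 1.57 for NAC091 and 1.10 for BAG6. At 3 days CRT3 was -0.54, AGB1 -0.45 and NAC014 -0.44 with it, the WT change of BAG7 was -0.65, and SAR1B was -0.23 at control. With a pseudocount of 0.1 BIP3 was 2.66 at control. The cause was not tested. Counts of the 8 genes stayed within 1.5 times in 137 of 142 alternatives. Single values of the 8 kept direction and call in 544 of 568, lost the call in 15, gained it in 2 and reversed in 7. These tallies include no filter, the minimum of 5 TPM, the replicate block and the groups compared alone. Those settings leave the estimates of the 8 unchanged and can move only their p-values. Replicate numbers did not pair the libraries: deviations from group means of same-numbered libraries correlated at -0.096 to 0.077, and 1 of 12 libraries correlated best with its own number. With the replicate block 6 and 0 of the 8 were called higher and lower at control, beside 6711 and 4247 of all 22462 genes. Each replicate number occurs once per group, so the block leaves every estimate unchanged and bears only on the calls. Reads per gene are unknown, which limits low genes such as NAC103 in WT control.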
